A study of Mus musculus with 35 samples.

Results

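The regions described here are the accessible chromatin regions (peaks) of 5 genomic windows that hold the genes of the VEGF receptors Kdr, Flt1 and Flt4 and of the angiopoietin receptors Tek and Tie1. A peak of the deposited table was taken when its midpoint lay inside a window on the mouse build mm9, and no measured value was used in that choice. This gave 99 of 76018 peaks. The Kdr window (chr5:76250000-76480000) held 35 of them, the Flt1 window (chr5:148350000-148600000) 31, the Flt4 window (chr11:49390000-49490000) 14, the Tek window (chr4:94370000-94560000) 15 and the Tie1 window (chr4:118125000-118185000) 4. Of these peaks 88 had enough counts to be tested (32 of Kdr, 27 of Flt1, 13 of Flt4, 13 of Tek and 3 of Tie1), and the other 11 enter only the summed levels. No mm9 gene annotation was used here, so a peak is given by its window and position and not as a promoter, exon or intron. By the gene order of a later assembly (RefSeq, GRCm38.p6), the protein-coding neighbours were Kit and Srd5a3 for Kdr, Pan3 and Pomp for Flt1, 1700024J04Rik and Scgb3a1 for Flt4, and Lrrc19 and Eqtn for Tek.

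Chromatin accessibility was measured by ATAC-seq, in which a transposase inserts sequencing adapters into open DNA. The cells came from mouse embryos during the endothelial-to-hematopoietic transition, the process by which endothelial cells give rise to blood stem cells. The groups were endothelial cells (EC) and hemogenic endothelium (HE) of embryonic day 8.5 (E8.5) with 4 samples each, EC and HE of E9.5 with 4 samples each, pro-HSC/HPC of E9.5 with 3 samples, EC and HE of E10.5 with 4 samples each, pre-HSC I of E10.5 with 3 samples from 4 libraries, and pre-HSC II of E10.5 with 4 samples. HSC stands for hematopoietic stem cell and HPC for hematopoietic progenitor cell, and every library came from a pool of 1500 sorted cells. All 9 groups carry the same genotype label, 23GFP transgenic, a reporter line known for placing GFP under an enhancer of the blood regulator Runx1. The labels give neither the reporter's driver nor the surface markers of the sorts. The tissue is labelled PAS+VU at E8.5 and E9.5, where the label of the E9.5 samples itself names E8.5, and AGM+VU at E10.5, so that day and dissected tissue cannot be told apart between E9.5 and E10.5. The series describes biological replicates, but no source used here says which embryos or litters made up a pool, so a p-value reflects only how far these samples spread, which may be technical. The labelled cell types were not checked against the loci of other marker genes, since that needs a gene annotation of the files' build. In pools of cells, fewer cells with an open region and less opening per cell cannot be told apart.

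VEGF receptors and Tie receptors are receptor tyrosine kinases of the endothelium. Kdr (VEGFR2) is the main signalling receptor for VEGF-A and is needed for the first endothelial and blood cells, Flt1 (VEGFR1) binds VEGF-A tightly with weak kinase activity and limits its supply to Kdr, and Flt4 (VEGFR3) binds VEGF-C and acts in early vessels and later in lymphatic ones. Tek (Tie2) is the receptor of the angiopoietins, which control vessel remodelling and stability, and Tie1 is its co-receptor without a well-established ligand of its own. Tek is also known as a surface protein of hematopoietic stem cells. Endothelial promoters and enhancers commonly carry binding sites of ETS factors, whose core is GGAA.

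All 5 genes were matched in the RefSeq promoter table (GRCm38.p6). The promoters of Kdr, Flt1 and Tie1 are shown, as the windows with a peak called lower at the last step described here, from pre-HSC I to pre-HSC II. Each is the 250 bases upstream of the gene's start on its own strand (the minus strand for all 3), written 5′ to 3′, with the ETS core in capitals (GGAA, or TTCC where it lies on the other strand). No mm9 peak was matched to these bases, because the builds differ.
Kdr: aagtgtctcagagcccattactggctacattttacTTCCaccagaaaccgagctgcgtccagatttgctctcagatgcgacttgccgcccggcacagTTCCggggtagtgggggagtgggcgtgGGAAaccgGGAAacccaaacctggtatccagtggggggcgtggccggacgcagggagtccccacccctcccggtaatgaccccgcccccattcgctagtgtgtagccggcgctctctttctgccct
Flt1: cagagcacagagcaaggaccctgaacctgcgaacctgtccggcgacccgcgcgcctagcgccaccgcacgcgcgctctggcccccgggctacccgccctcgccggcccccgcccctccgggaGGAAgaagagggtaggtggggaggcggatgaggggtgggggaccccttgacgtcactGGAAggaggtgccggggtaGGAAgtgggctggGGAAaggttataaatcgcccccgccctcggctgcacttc
Tie1: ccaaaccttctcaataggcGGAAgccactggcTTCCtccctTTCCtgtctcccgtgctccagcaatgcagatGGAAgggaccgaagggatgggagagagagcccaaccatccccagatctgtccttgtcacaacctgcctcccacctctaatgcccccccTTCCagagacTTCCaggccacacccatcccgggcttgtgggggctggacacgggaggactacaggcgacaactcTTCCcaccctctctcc
The core occurred 4 times in the Kdr promoter, 4 times in that of Flt1, 2 times in those of Flt4 and Tek, and 7 times in that of Tie1. Over all 32851 promoters of this length the median was 3 sites, 93.4% held at least 1, and 3.82% held at least 7. Neither GATAA (the letters of a GATA site) nor TGTGGT (a RUNX site) was found on either strand of any of the 5 promoters, against 22.6% and 14% of all promoters. The E-box letters CANNTG occurred 2 times in the Tek promoter, 1 time each in those of Kdr, Flt4 and Tie1, and not in that of Flt1 (66.2% of all promoters hold them). The SOX letters ACAAT occurred only in the Tek promoter among the 5, with 2 matches (27.7% of all promoters hold them). Both strands were searched, no motif contains another, and a match describes letters and not a bound site.

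Libraries held 456770 to 7415315 counts in peaks. Levels are given as CPM, counts in proportion to the library total after TMM scaling, and 3 counts stood for 0.432 CPM in the deepest library and for 5.24 CPM in the shallowest, a pre-HSC II library. Pre-HSC II was the shallowest group, with 456770 to 1241216 counts per library. The pair of pre-HSC I libraries 2 and 3 was closer than sampling noise (chi-square per degree of freedom 0.461, against 2.59 to 7.92 in other pairs of replicates) and was counted as 1 sample. Libraries 1 and 2 of both E8.5 groups and libraries 1 and 4 of E10.5 HE were shallow for their groups, and 3 E9.5 libraries (EC 3, EC 4 and HE 4) held 6470 to 9126 counts in 1 chromosome X peak where the other 8 E9.5 libraries held 369 to 1177. Results were recomputed without these sets, and their part in the results was not tested in any other way. A peak was called when its two-sided p from edgeR's quasi-likelihood test, with Benjamini-Hochberg adjustment over all 67131 tested peaks, was below 0.05. Fold changes are log2 values with the standard error (SE).

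Most of the 99 peaks had their highest group mean in EC of E9.5 or HE of E8.5 and their lowest in a pre-HSC group. The highest of the 9 group means lay in E9.5 EC for 36 and in E8.5 HE for 22, and the lowest in pre-HSC II for 47 and in pre-HSC I for 19. The same counts over all peaks were not computed, so these have no background here. Pre-HSC II, the shallowest group, was also lower over all tested peaks with TMM scaling (median -0.14 against E10.5 EC and -0.16 against pre-HSC I). At least 1 comparison called 55 of the 88 tested peaks (23 of Kdr, 17 of Flt1, 7 of Flt4, 6 of Tek and 2 of Tie1), and 33 were called in none. The peaks were 126 to 2721 bp wide with a median of 623 bp. Of the 24 peaks of 1000 bp or more, all tested, 21 were called in some comparison, against 10 of the 26 tested peaks under 500 bp, whose mean level stayed at or below 27.5 CPM. The share of all tested peaks called in at least 1 comparison was not computed, for any width. The counts of peaks called in some comparison therefore have no background here.

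**Figure D1:**
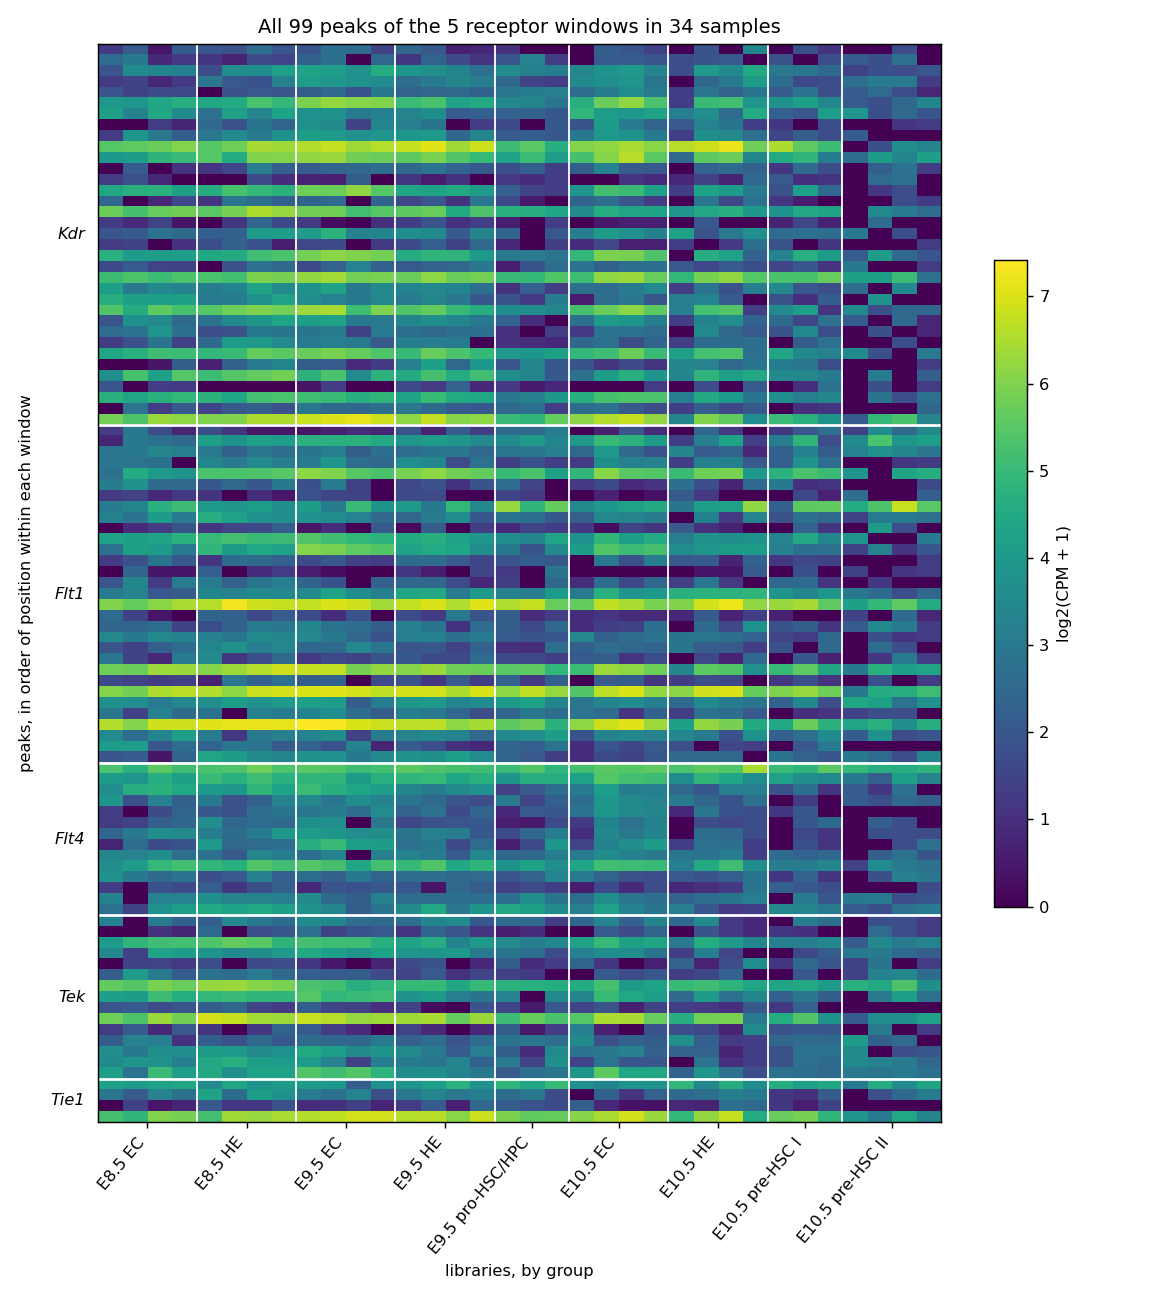
Each row is 1 of the 99 peaks, ordered by position within its window, each column 1 of the 34 samples, ordered by group, and the colour is log2(CPM + 1). Many rows of the Kdr window are dark, the low end of the colour scale, in the pro-HSC/HPC and pre-HSC II columns.

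At E8.5, HE had 3 peaks with higher accessibility than EC and none with lower, of 88 tested, where 1.43% of all tested peaks were called in either direction (1.3% higher). All 3 lay in the Flt1 window. The median log2 fold change was 0.46 over the tested peaks of the windows and 0.02 over all tested peaks. No call was left without the shallow libraries 1 and 2 of both groups, where the 3 peaks kept their direction with log2 fold changes of 1.59 to 2.03 and adjusted p of 0.324 to 0.595 in edgeR's quasi-likelihood test. In that fit 0.0233% of all tested peaks were called. A single call was left without E8.5 EC library 1, without E8.5 EC library 3 or without E8.5 HE library 1. Over all tested peaks 0.648%, 0.732% and 0.939% were then called.

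At E9.5 the direction was the other one: 7 of 88 peaks were lower in HE than in EC and 1 was higher, where 2.58% of all tested peaks were called (1.22% lower, 1.36% higher). The lower peaks were 3 of Kdr, 2 of Tek, 1 of Flt1 and 1 of Flt4, and the higher one lay in the Kdr window. The median was -0.38, against 0.05 over all tested peaks, and all 13 tested Tek peaks were below 0 (-1.85 to -0.15). The libraries of HE and EC did not overlap at any of the 8 called peaks. These peaks were picked by their p from the same libraries, and the share over all tested peaks was not computed. No call was left without the 3 libraries high on chromosome X, where all 8 peaks kept their direction with sizes of 1.16 to 2.35 and adjusted p of 0.117 to 0.703 (edgeR's quasi-likelihood test), and 3 were left without HE library 4.

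The change itself was tested as an interaction: the HE against EC difference was lower at E9.5 than at E8.5 for 6 peaks and higher for none, where 1.49% of all tested peaks were called (1.21% lower). They were 3 peaks of Kdr, 2 of Flt1 and 1 of Flt4. The median over the tested peaks of the windows was -0.70, against 0.03 over all tested peaks. No call was left without the shallow E8.5 libraries or without the chromosome X-high E9.5 libraries. All 6 peaks stayed negative there, with sizes of 1.79 to 3.04 (adjusted p of 0.149 to 0.384) and 1.78 to 3.80 (adjusted p of 0.051 to 0.229) in edgeR's quasi-likelihood test, and the windows' median was -0.84 and -0.90. In these fits 0.00822% and 0.0625% of all tested peaks were called. A total of 2 calls were left without E8.5 EC library 1 or without E9.5 HE library 4.

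At E10.5, 5 of 88 peaks were lower in HE than in EC and none was higher, where 2.28% of all tested peaks were called (1.57% lower, 0.717% higher). They were 3 peaks of Kdr, 1 of Flt1 and 1 of Tek, and the median was -0.54 against 0.01 over all tested peaks. Of the 7 peaks lower in HE at E9.5 and the 5 at E10.5 in this unblocked fit, 2 were shared, chr5:76370371-76371292 in the Kdr window and chr4:94496550-94497268 in the Tek window. Same-numbered E10.5 EC and HE libraries deviated together, and with the replicate number as a block 14 peaks were lower and none higher (7 of Kdr, 4 of Flt1, 2 of Tek and 1 of Flt4). In that fit 3.68% of all tested peaks were called in either direction. These 14 held both shared peaks, and their full overlap with E9.5 was not counted. They also held chr5:76337643-76338561 (-1.35, adjusted p = 0.00717) and chr5:148441945-148443166 (-1.15, adjusted p = 0.0351, edgeR's quasi-likelihood test with the block), both lower in HE than in EC at E9.5 too. No call was left with only these 2 groups in an unblocked fit or without the shallow HE libraries 1 and 4, where the 5 peaks kept their direction with sizes of 0.60 to 1.38, and leaving out single libraries gave 2 (without EC library 2 or HE library 4) to 12 calls (without HE library 3). Over all tested peaks, 0.294% were called with only these 2 groups and 0.511% without the shallow HE libraries. Leaving out EC library 2, HE library 4 or HE library 3 gave 0.873%, 1.41% and 2.97%.

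In pro-HSC/HPC of E9.5, 6 peaks were lower than in HE, all in the Kdr window, and 1 Flt1 peak was higher, where 1.74% of all tested peaks were called (1.09% lower). The median was -1.33 over the Kdr peaks, -0.78 over all tested peaks of the 5 windows and 0.02 over all tested peaks. Set against E9.5 EC, 36 of 88 peaks were lower in pro-HSC/HPC and 3 were higher, where 11.8% of all tested peaks were called (6.8% lower, 5.01% higher). The lower ones were 20 of 32 tested Kdr peaks, 6 of 13 Tek, 5 of 27 Flt1, 4 of 13 Flt4 and 1 of 3 Tie1. The higher ones were 2 peaks of Flt1 and 1 of Tie1. The 3 E9.5 comparisons share samples, so their counts are not independent. The count against HE was 2 without HE library 2 or without pro-HSC/HPC library 2, and the count against EC was 22 without pro-HSC/HPC library 1. Over all tested peaks, 0.551% and 0.649% were called against HE in the fits without HE library 2 and without pro-HSC/HPC library 2.

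From HE to pre-HSC I at E10.5, edgeR's quasi-likelihood test called 0 of 88 peaks. At an unadjusted p under 0.05 there were 16, and DESeq2 gave 23 at that level and likewise 0 calls. Over all tested peaks 0.07% were called (0.0581% higher, 0.0119% lower). The median was -0.54 against 0 over all tested peaks, and 69 of the 88 values were below 0. Without the shallow HE libraries 1 and 4, 6 peaks were called, all lower in pre-HSC I (5 of Kdr and 1 of Flt4). For that fit and for the unadjusted level, the share over all tested peaks is not given here.

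From pre-HSC I to pre-HSC II, 9 peaks were lower and none was higher, where 4.93% of all tested peaks were called (4.09% lower, 0.84% higher). They were 4 of Kdr, 4 of Flt1 and 1 of Tie1, with no call among the Flt4 and Tek peaks. The median was -0.49, or -0.47 with the 16 peaks of 3 or fewer counts in a group set at their bound, against -0.16 over all tested peaks. With RLE size factors or cyclic loess offsets the median of all tested peaks moved to 0.11 or 0.12, that of the windows' peaks to -0.20 or -0.22, and the calls fell to 5 or 4, all lower. Pre-HSC II libraries were the shallowest, and with all libraries thinned to the lowest total 4 of the windows' 34 peaks then tested were called.

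Set against E10.5 EC, 43 of 88 peaks were lower in pre-HSC II and 3 were higher, where 25.3% of all tested peaks were called (16.2% lower, 9.14% higher). The lower ones were 20 of 32 tested Kdr peaks, 13 of 27 Flt1, 5 of 13 Flt4, 4 of 13 Tek and 1 of 3 Tie1, and the 3 higher ones lay in the Flt1 window. The median was -1.63 (-1.56 with 13 peaks at their bound) against -0.14 over all tested peaks, and -1.39 with RLE size factors against 0.13. Pro-HSC/HPC against E9.5 EC and pre-HSC II against E10.5 EC share no samples, and 29 peaks were lower in both, 80.6% of the 36 at E9.5 and 67.4% of the 43 at E10.5. They were 18 peaks of Kdr, 4 of Flt1, 4 of Tek, 2 of Flt4 and 1 of Tie1. The same overlap over all tested peaks was not computed, so these shares have no background here. With only the 2 groups in the fit 28 peaks were called against EC.

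Within EC, 17 of 88 peaks were higher at E9.5 than at E8.5 and none was lower, where 11.1% of all tested peaks were called (6.51% higher, 4.56% lower). They were 10 peaks of Kdr, 5 of Flt1, 1 of Flt4 and 1 of Tie1. The median was 0.60, against -0.07 over all tested peaks. From E9.5 to E10.5, where the tissue label changes with the day, 2 peaks were lower and none was higher, against 0.316% of all tested peaks called (0.249% lower, 0.067% higher). The first count was 6 without the shallow E8.5 libraries, and the second was 0 without E9.5 EC library 1, E9.5 EC library 2 or E10.5 EC library 1.

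**Figure D2:**
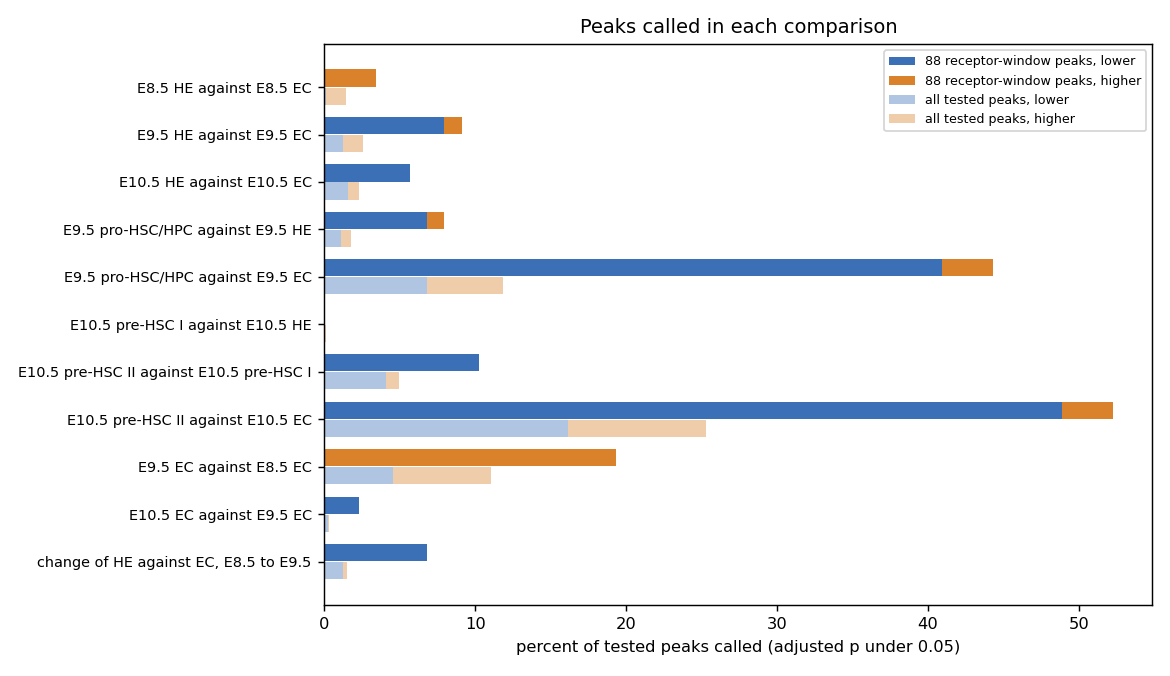
Horizontal bars give the percent of peaks called higher or lower in each of the 11 comparisons, for the 88 tested peaks of the receptor windows (dark) and for all 67131 tested peaks (pale). All calls shown are from the main fit, without a replicate block. The bars of lower peaks in the windows are longest for pre-HSC II against E10.5 EC (43 of 88) and pro-HSC/HPC against E9.5 EC (36 of 88).

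The Kdr window, that of the main VEGF-A receptor, had the largest number of peaks called lower in the blood stages of the 5 windows, 20 in pro-HSC/HPC and 20 in pre-HSC II, each against the EC of its day. Its CPM summed over 35 peaks was 502 ± 53.6 in E8.5 EC, 698 ± 183 in E8.5 HE, 916 ± 119 and 655 ± 130 in the EC and HE of E9.5 (SD, n = 4 each). It was 276 ± 8.71 in pro-HSC/HPC (SD, n = 3), 691 ± 178 in E10.5 EC, 469 ± 189 in E10.5 HE (SD, n = 4 each), 310.0 ± 46.9 in pre-HSC I (SD, n = 3) and 139.7 ± 38.7 in pre-HSC II (SD, n = 4). In the order of these means, neighbouring groups overlapped in their libraries except pro-HSC/HPC (lowest 270.8) and pre-HSC II (highest 179).

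**Figure D3:**
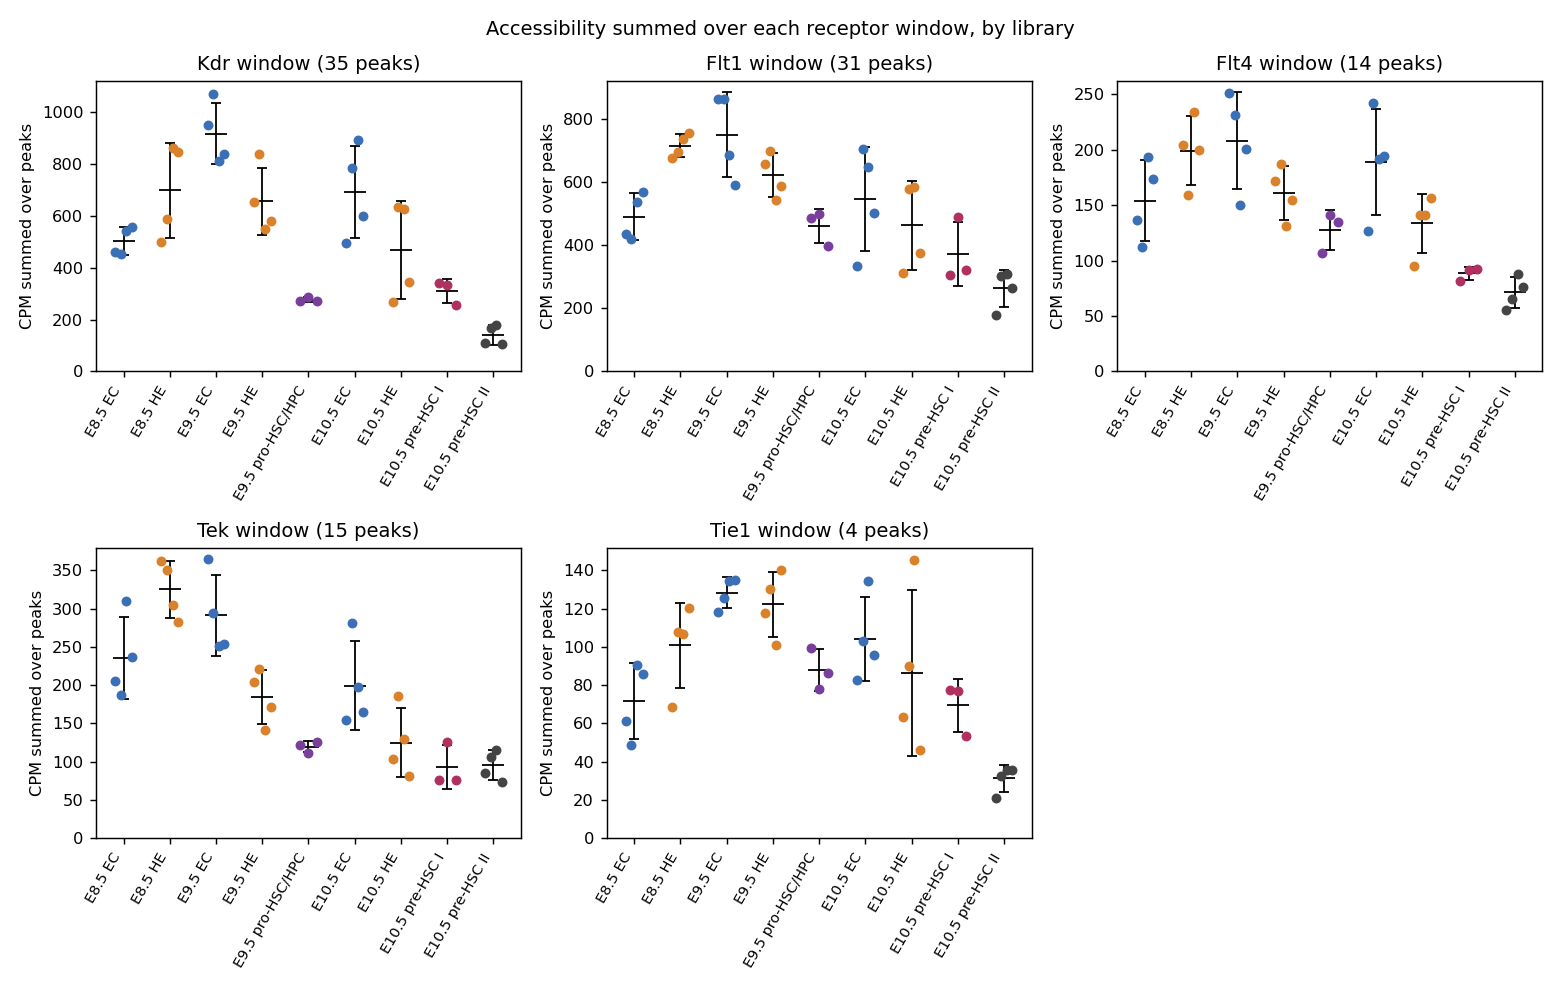
Points are the CPM summed over the peaks of 1 window in 1 sample, with 1 panel per window, the 9 groups on the horizontal axis, and the mean and SD as a bar. Pre-HSC II is lowest in the Kdr, Flt1, Flt4 and Tie1 panels, and E9.5 EC is highest in these same panels with TMM scaling, an order that other scalings turn in part for Flt1 and Flt4.

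Under other scalings the summed CPM of E8.5 HE exceeded that of E9.5 EC for Flt1 (743 against 738 with RLE size factors, 737 against 698 with cyclic loess offsets) and Flt4 (206 against 204, RLE), and with loess offsets Flt4 was lower in pre-HSC I (86.2) than in pre-HSC II (88.7).

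The peak with the highest mean of the Kdr window, chr5:76317469-76319516, was low in the blood stages and was not called between HE and EC on any day. Its E9.5 libraries measured 94.1, 107, 81.3 and 95.0 CPM (EC), 108, 136, 81.0 and 115.5 CPM (HE) and 33.2, 45.2 and 24.7 CPM (pro-HSC/HPC). Its E10.5 libraries measured 65.0, 72.3, 87.7 and 67.7 CPM (EC), 98.2, 112, 146 and 54.8 CPM (HE), 89.8, 46.6 and 33.3 CPM (pre-HSC I) and 0, 2.51, 11.9 and 8.92 CPM (pre-HSC II). Every pro-HSC/HPC library lay below every E9.5 HE and EC library, and every pre-HSC II library lay below all other E10.5 libraries, while HE and EC overlapped at both days. The peak fell by 1.67 from HE to pro-HSC/HPC (SE 0.312, adjusted p = 0.00168, edgeR's quasi-likelihood test with Benjamini-Hochberg adjustment), a 3.18-fold difference. Its difference of pre-HSC I from E10.5 HE, -0.88, was not called. Without the shallow HE libraries 1 and 4 that difference was -1.26 and was called (SE 0.316, adjusted p = 0.0293 in the same edgeR test). From pre-HSC I to pre-HSC II the peak fell by 3.10 (SE 0.402, adjusted p = 5.85e-07 in the same edgeR test), or 8.55-fold, and this last call was kept in all 16 alternatives.

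A second Kdr peak 19.6 kb from the first, chr5:76337643-76338561, was lower already in HE. Its E9.5 EC libraries measured 53.9, 52.9, 72.5 and 43.3 CPM, the HE libraries 19.4, 18.6, 21.7 and 15.3, and the pro-HSC/HPC libraries 3.81, 1.85 and 1.54. The 3 groups did not overlap, with EC highest and pro-HSC/HPC lowest. The difference of HE from EC was -1.56 (SE 0.365, adjusted p = 0.00793, edgeR's quasi-likelihood test), that of pro-HSC/HPC from HE -2.79 (SE 0.516, adjusted p = 0.00155) and that of pro-HSC/HPC from EC -4.35 (SE 0.519, adjusted p = 1.14e-08), or 20.4-fold. At E8.5 the EC libraries measured 20.9, 24.4, 26.2 and 17.7 CPM and the HE libraries 23.5, 37.6, 29.8 and 26.5, which overlap, and the HE against EC difference changed by -1.95 to E9.5 (SE 0.521, adjusted p = 0.0351, edgeR's quasi-likelihood test), a call kept in 12 of 26 alternatives. Pre-HSC II held 3 counts over its 4 libraries, against 389 in E10.5 EC, a ratio in CPM of 32.8 with an exact 95% counting interval of 11.1 to 160. Without the chromosome X-high E9.5 libraries the HE call was lost (adjusted p = 0.32), the call of pro-HSC/HPC against HE was lost after thinning (adjusted p = 0.129), and that against EC was kept in all 16 alternatives.

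At the Kdr peak chr5:76370371-76371292, 52.3 kb from the highest peak, HE was lower than EC at both E9.5 and E10.5. E9.5 EC measured 56.1, 69.7, 62.8 and 57.7 CPM and E9.5 HE 22.6, 27.5, 27.4 and 15.3, and E10.5 EC measured 29.2, 60.8, 58.5 and 39.9 and E10.5 HE 0, 23.5, 18.1 and 4.03. EC and HE did not overlap on either day. The difference was -1.41 at E9.5 (SE 0.365, adjusted p = 0.0191) and -1.88 at E10.5 (SE 0.388, adjusted p = 0.00319, both from edgeR's quasi-likelihood test), and -2.18 at E10.5 with the replicate block (adjusted p = 8.88e-06 in the same edgeR test). The pro-HSC/HPC libraries were close together at 7.08, 7.39 and 6.17 CPM, 8.8-fold below E9.5 EC (-3.14, SE 0.47, adjusted p = 1.98e-06, edgeR). At E8.5 the EC libraries measured 25.2, 15.7, 16.3 and 16.7 CPM and HE 20.5, 22.0, 34.7 and 39.3, so that 3 of the 4 EC libraries lay below every HE library, with no call. The E9.5 call of HE was lost without EC library 2, HE library 1, HE library 4 or the libraries high on chromosome X, and the E10.5 call without the shallow HE libraries and with only the 2 groups. EC rose by 1.75 from E8.5 to E9.5 (SE 0.384, adjusted p = 0.00158, edgeR's quasi-likelihood test).

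**Figure D4:**
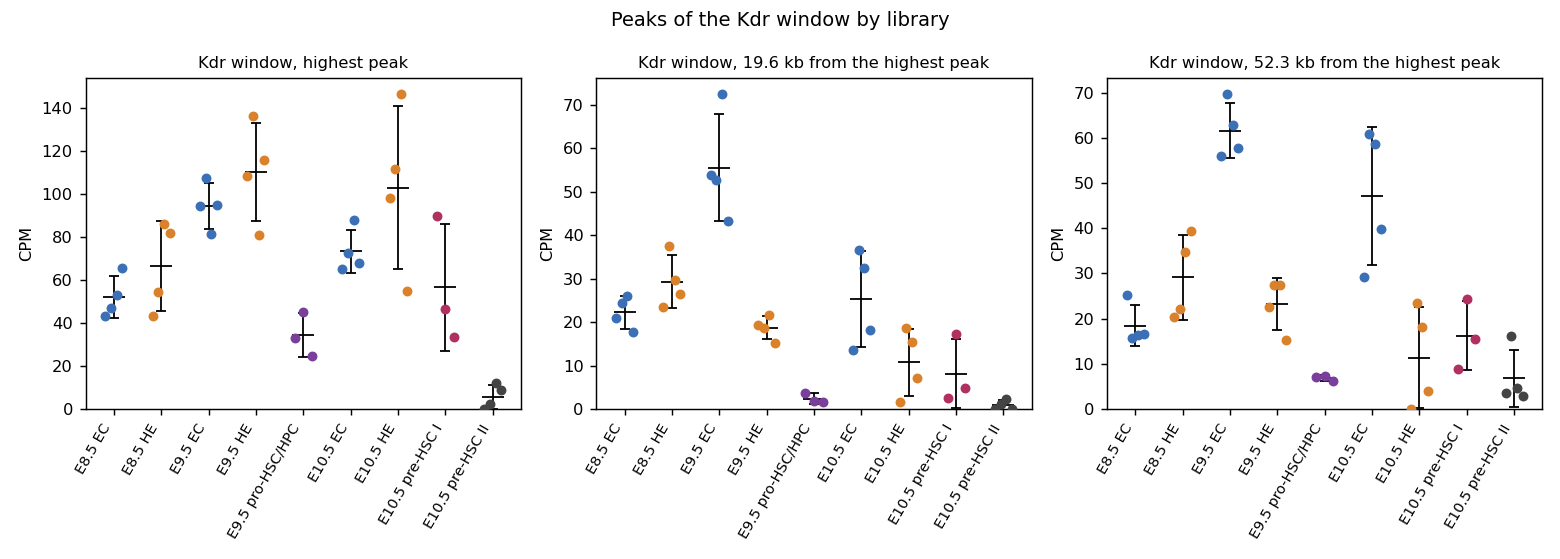
Points are the CPM of 1 peak in 1 sample for 3 peaks of the Kdr window, with the mean and SD of each of the 9 groups. E9.5 HE lies at the level of E9.5 EC in the left panel (81.0 to 136 CPM) and below every EC library in the other 2 panels.

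Other Kdr peaks changed at single steps. The peak chr5:76357612-76359234 was the Kdr peak called between E9.5 EC (55.1, 55.3, 35.4 and 43.3 CPM) and E10.5 EC (10.4, 23.0, 19.0 and 18.8 CPM), with no overlap and a difference of -1.40 (SE 0.289, adjusted p = 0.00897, edgeR's quasi-likelihood test). That call was lost without E9.5 EC library 1, E9.5 EC library 2 or E10.5 EC library 1 (adjusted p up to 0.0927 over the alternatives). The peak chr5:76273243-76273798 was low in E8.5 EC (1.44, 1.75, 0.758 and 1.42 CPM) and higher in E9.5 EC (17.0, 13.6, 12.4 and 10.9 CPM), a rise of 3.37 (SE 0.637, adjusted p = 0.000255, edgeR's quasi-likelihood test), or 10.3-fold. Its E9.5 EC libraries all lay above those of E8.5, and the call was kept in all 17 alternatives.

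Across the Kdr window the called peaks moved in 1 direction at the later steps: all 20 called against E9.5 EC in pro-HSC/HPC were lower (-4.35 to -1.02), as were all 20 called in pre-HSC II against E10.5 EC. No Kdr peak was called higher in either comparison. The other 31 tested Kdr peaks had a median Pearson r of 0.69 with the highest peak over the 9 group means of log2 CPM (-0.40 to 0.96), with 2 below 0. These r describe 9 groups that share libraries and depth. Outside the windows, the 3 peaks most like the highest Kdr peak by this r were chr6:128074099-128074860 (0.99), chr8:37674576-37677718 (0.989) and chr11:23110972-23112139 (0.988).

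**Figure D5:**
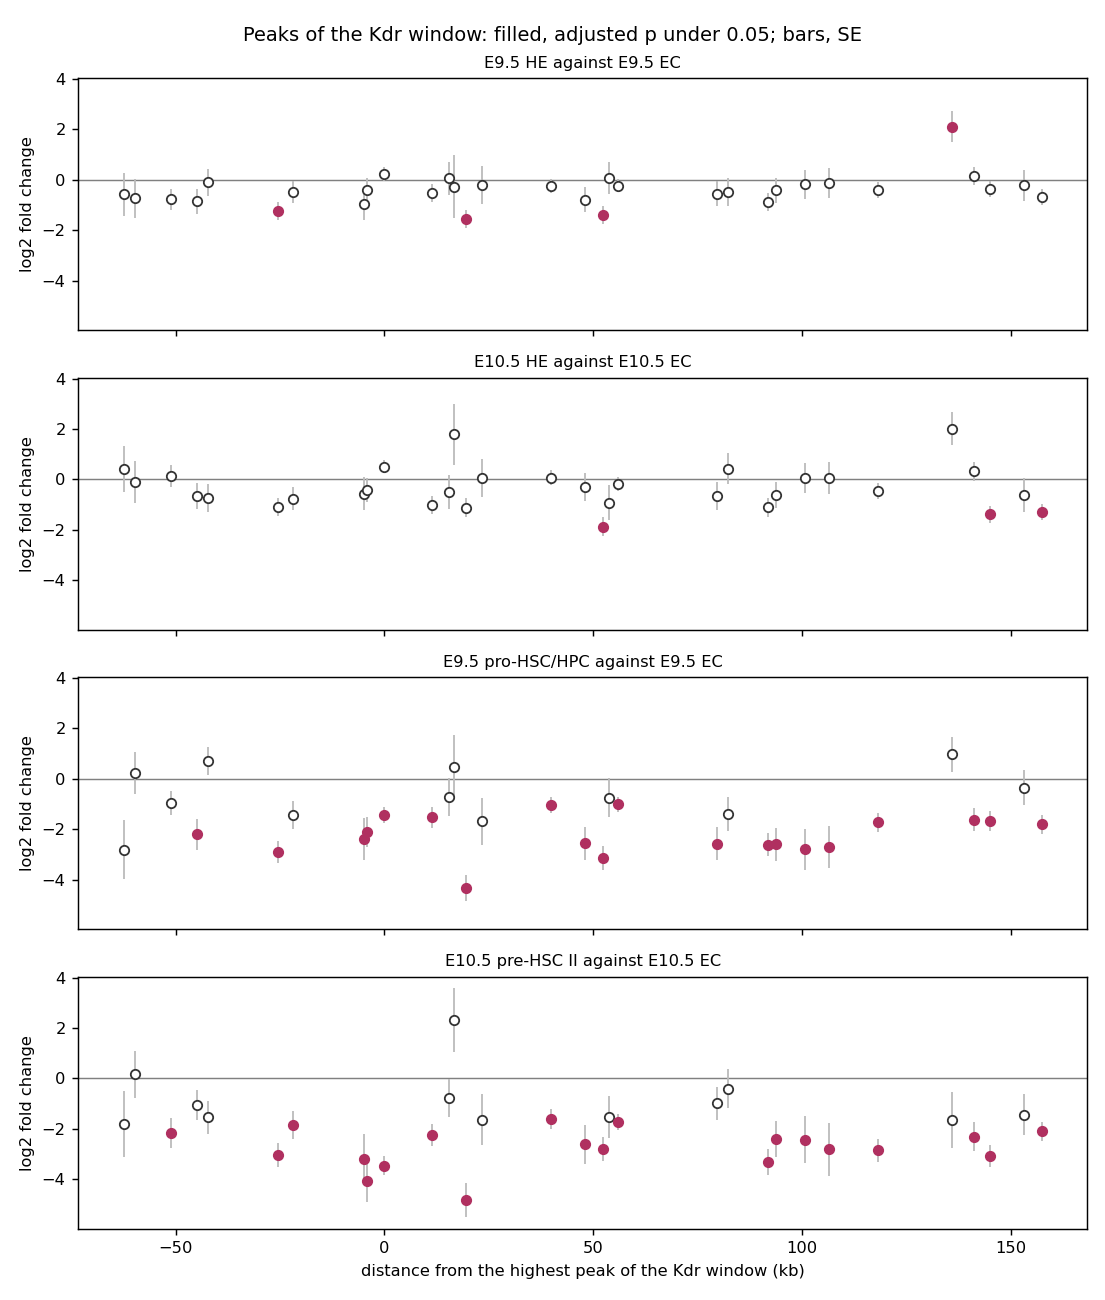
Each point is a tested peak of the Kdr window, placed by its distance in kb from the highest peak, with its log2 fold change and SE in 1 comparison per panel, and filled points were called. Filled points lie below 0 in the panels of pro-HSC/HPC against E9.5 EC and pre-HSC II against E10.5 EC (20 peaks each).

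The Flt1 window, that of the VEGF-A-limiting receptor, had 5 peaks called lower in pro-HSC/HPC and 13 in pre-HSC II, each against the EC of its day and of 27 tested. Its CPM summed over 31 peaks was 491 ± 73.9 in E8.5 EC, 716 ± 36.6 in E8.5 HE, 751 ± 135 and 622 ± 69.9 in the EC and HE of E9.5 (SD, n = 4 each). It was 462 ± 54.7 in pro-HSC/HPC (SD, n = 3), 547 ± 165 in E10.5 EC, 463 ± 140 in E10.5 HE (SD, n = 4 each), 372 ± 103 in pre-HSC I (SD, n = 3) and 263 ± 59.9 in pre-HSC II (SD, n = 4). Neighbours in the order of these means all overlapped in their libraries.

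Hemogenic endothelium of E8.5 was set apart from EC at the Flt1 peak chr5:148401220-148402183. EC measured 5.76, 22.7, 14.8 and 12.8 CPM and HE 38.5, 38.9, 40.5 and 44.5, with every HE library above every EC library and HE libraries close together. The rise was 1.56 (SE 0.363, adjusted p = 0.0126, edgeR's quasi-likelihood test), or 2.95-fold, and the call was lost without E8.5 EC library 1 and without the shallow E8.5 libraries (adjusted p = 0.324). By E9.5 EC measured 70.9, 62.6, 44.2 and 38.4 CPM and HE 58.7, 69.9, 54.8 and 50.1, which overlap. The other 2 Flt1 peaks higher in E8.5 HE were chr5:148386054-148386602 (1.80, adjusted p = 0.0468) and chr5:148598490-148599074 (2.32, adjusted p = 0.0141, both from edgeR's quasi-likelihood test), and both rose in EC by E9.5 as well (2.39 and 2.03). The first of these HE calls was lost without any single library of the 2 groups, and the other without EC library 3 or HE library 1.

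The peak chr5:148441945-148443166 separated EC from HE at E9.5. E9.5 EC measured 64.95, 60.5, 46.9 and 41.2 CPM, HE 18.3, 22.2, 19.4 and 11.8, and pro-HSC/HPC 7.08, 2.77 and 10.8. EC lay above all libraries of the other 2 groups, and pro-HSC/HPC lay below HE. HE differed from EC by -1.57 (SE 0.332, adjusted p = 0.00287, edgeR's quasi-likelihood test) and pro-HSC/HPC from EC by -3.02 (SE 0.422, adjusted p = 4.86e-07), or 8.1-fold. At E8.5 EC (5.76, 17.5, 15.2 and 7.09 CPM) and HE (27.7, 15.6, 20.7 and 18.5 CPM) overlapped, with no call, and EC rose by 2.26 to E9.5 (SE 0.36, adjusted p = 1.79e-05, edgeR), so that the HE against EC difference changed by -2.45 (SE 0.492, adjusted p = 0.00437, edgeR's quasi-likelihood test). The HE call was lost when the chromosome X-high E9.5 libraries were left out (adjusted p = 0.117) and after thinning.

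Of the 4 Flt1 peaks that fell from pre-HSC I to pre-HSC II, 2 had high levels. The peak with the highest mean of the window, chr5:148468944-148470327, had pre-HSC I values of 77.0, 86.6 and 46.4 CPM and pre-HSC II values of 17.5, 30.1, 46.6 and 22.3 CPM, which overlap only by their 46.4 and 46.6, and fell by 1.26 (SE 0.311, adjusted p = 0.00957, edgeR's quasi-likelihood test), a call lost without pre-HSC I library 1 or 2, with cyclic loess offsets, with only the 2 groups and after thinning. At chr5:148536404-148539125 the pre-HSC I libraries measured 62.9, 76.4 and 53.6 CPM and the pre-HSC II libraries 6.98, 22.6, 23.9 and 33.4, without overlap, a fall of 1.48 (SE 0.326, adjusted p = 0.00344, edgeR). That call was kept in all 16 alternatives. Against E10.5 EC other Flt1 peaks were lower as well. At chr5:148562902-148565235 E10.5 EC measured 71.2, 113, 134 and 80.0 CPM, HE 17.7, 72.9, 59.2 and 21.8, and pre-HSC II 19.2, 25.1, 11.9 and 23.8. Pre-HSC II lay below every EC library (-2.30, SE 0.326, adjusted p = 1.59e-07, edgeR), and HE overlapped EC by 1 library (-1.16, SE 0.281, adjusted p = 0.0127, edgeR). The HE call was lost without EC library 2 or 3 or HE library 1 or 4 (adjusted p up to 0.483 over the alternatives). The peak chr5:148572914-148573304 had 0 counts in pre-HSC II against 35 in E10.5 EC, at least 2.95-fold lower by a floor of 3 counts over the group.

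In the Flt1 window 2 of 27 tested peaks were higher in pro-HSC/HPC than in E9.5 EC, where 5.01% of all tested peaks were, and 3 in pre-HSC II than in E10.5 EC, where 9.14% were, counts near these background shares. The 198 bp peak chr5:148423010-148423208 had E9.5 values of 16.0, 7.82, 31.8 and 13.4 CPM (EC), 15.0, 7.07, 29.1 and 10.2 CPM (HE) and 74.3, 28.6 and 49.3 CPM (pro-HSC/HPC). Its E10.5 values were 10.4, 14.5, 17.9 and 21.7 CPM (EC), 6.44, 16.7, 18.1 and 72.6 CPM (HE), 3.85, 46.1 and 47.6 CPM (pre-HSC I) and 22.7, 40.1, 109.9 and 44.6 CPM (pre-HSC II). One pro-HSC/HPC library lay within the range of E9.5 EC and HE, while every pre-HSC II library lay above every E10.5 EC library. It rose by 1.67 in pro-HSC/HPC (SE 0.502, adjusted p = 0.0181) and by 1.75 in pre-HSC II (SE 0.483, adjusted p = 0.00451), each against the EC of its day in edgeR's quasi-likelihood test. The first was lost without E9.5 EC library 1, 2 or 4, without pro-HSC/HPC library 1 and in DESeq2, and the second without pre-HSC II library 3. Its rise of 1.81 over E9.5 HE (SE 0.499, adjusted p = 0.0401, edgeR) was lost without any of 6 single libraries (E9.5 HE 1, 2 or 4, or any pro-HSC/HPC library). The other peak higher than EC in both was chr5:148353870-148354085 (3.28 in pro-HSC/HPC and 2.65 in pre-HSC II), with calls kept in 10 of 15 and 8 of 13 alternatives. The peak chr5:148598490-148599074 was higher in pre-HSC II (1.60, adjusted p = 0.0402, edgeR, kept in 5 of 13 alternatives) after a fall of EC by 2.43 from E9.5 to E10.5 (adjusted p = 0.0138, edgeR). The fall in EC was lost without E9.5 EC library 1, E9.5 EC library 2 or E10.5 EC library 1, and without the chromosome X-high E9.5 libraries.

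The other 26 tested Flt1 peaks had a median r of 0.59 with the highest peak over the 9 group means (-0.67 to 0.97), with 5 below 0. Outside the windows the peaks most like the highest Flt1 peak were chr2:71955065-71956365 (0.993), chr2:131770749-131771547 (0.99) and chr7:74886600-74887017 (0.989).

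The Flt4 window, that of the VEGF-C receptor, had 4 of 13 tested peaks called lower in pro-HSC/HPC and 5 in pre-HSC II, each against the EC of its day. Its CPM summed over 14 peaks was 154 ± 36.5 in E8.5 EC, 199 ± 31.1 in E8.5 HE, 208 ± 43.9 and 161 ± 24 in the EC and HE of E9.5 (SD, n = 4 each). It was 128 ± 18.2 in pro-HSC/HPC (SD, n = 3), 189 ± 47.5 in E10.5 EC, 134 ± 26.7 in E10.5 HE (SD, n = 4 each), 88.5 ± 6.07 in pre-HSC I (SD, n = 3) and 71.5 ± 14.1 in pre-HSC II (SD, n = 4). Of the neighbours in this order, pro-HSC/HPC and pre-HSC I did not overlap and the others did.

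The highest Flt4 peak, chr11:49422385-49424259, measured 36.8, 44.6, 43.0 and 46.9 CPM in E10.5 EC and 29.7, 23.8, 23.9 and 27.5 in pre-HSC II. The groups did not overlap, and the difference of -0.71 (SE 0.273, adjusted p = 0.0454, edgeR's quasi-likelihood test) was its only call in 11 comparisons. That call was kept in 4 of 16 alternatives and was lost with RLE size factors, cyclic loess offsets and DESeq2 and without any of EC libraries 2, 3 and 4 or pre-HSC II libraries 2, 3 and 4. The peak chr11:49431727-49432564, 8.8 kb away, measured 32.2, 24.6, 19.5 and 16.9 CPM in E9.5 EC, 9.64, 7.23, 10.3 and 12.5 in HE, and 1.63, 3.23 and 5.40 in pro-HSC/HPC. The 3 groups did not overlap, and pro-HSC/HPC differed from EC by -2.92 (SE 0.536, adjusted p = 6.84e-05, edgeR), a call kept in all 16 alternatives. HE against EC was not called there.

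At chr11:49440203-49440602 EC stood above HE at E9.5, with 24.9, 30.9, 16.8 and 15.8 CPM in EC and 5.90, 7.07, 2.28 and 5.09 in HE. The groups did not overlap, and HE differed by -2.07 (SE 0.564, adjusted p = 0.0278, edgeR's quasi-likelihood test), a call lost without any of EC libraries 1 and 2 or HE libraries 1, 3 and 4. EC had measured 0.720, 5.23, 2.27 and 2.84 CPM at E8.5 and rose by 3.05 to E9.5 (SE 0.646, adjusted p = 0.00101, edgeR), or 8.27-fold, a call kept in all 17 alternatives. The peak chr11:49435593-49435915 measured 6.13, 14.1, 10.4 and 9.38 CPM in E10.5 EC and had 0 counts in all pre-HSC II libraries against 152 in EC, at least 12.8-fold lower by a floor of 3 counts over the group. The other 12 tested Flt4 peaks had a median r of 0.51 with the highest peak over the 9 group means (-0.02 to 0.73), and the peaks most like it outside the windows were chr10:41225257-41225573 (0.994), chr17:24097261-24097733 (0.985) and chr7:149643315-149643598 (0.97).

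The Tek window, that of the angiopoietin receptor, had its highest summed level in E8.5 HE and its lowest in the pre-HSC groups. Its CPM summed over 15 peaks was 235 ± 53.8 in E8.5 EC, 325 ± 37.7 in E8.5 HE, 291 ± 52.9 and 185 ± 35.4 in the EC and HE of E9.5 (SD, n = 4 each). It was 119.7 ± 7.53 in pro-HSC/HPC (SD, n = 3), 199 ± 57.7 in E10.5 EC, 125 ± 45.4 in E10.5 HE (SD, n = 4 each), 92.9 ± 28.7 in pre-HSC I (SD, n = 3) and 95.2 ± 19.6 in pre-HSC II (SD, n = 4). Neighbours in the order of these means all overlapped. E9.5 EC (251 to 365) and E9.5 HE (142 to 221), which are not neighbours in it, did not.

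The peak chr4:94496550-94497268, 83.7 kb from the highest Tek peak, was lower in HE than in EC at E9.5 and E10.5. E9.5 EC measured 41.6, 34.7, 42.4 and 26.7 CPM, HE 11.2, 11.9, 9.13 and 7.05, and pro-HSC/HPC 3.27, 5.54 and 6.17. E10.5 EC measured 14.1, 46.2, 19.9 and 20.2 CPM, HE 4.03, 13.6, 6.02 and 2.42, pre-HSC I 5.77, 5.57 and 4.76, and pre-HSC II 6.98, 6.26, 7.17 and 5.94. EC did not overlap HE on either day, and at E10.5 the HE, pre-HSC I and pre-HSC II libraries lay in 1 low range. The difference of HE from EC was -1.85 at E9.5 (SE 0.377, adjusted p = 0.0019) and -1.83 at E10.5 (SE 0.401, adjusted p = 0.00515, both from edgeR's quasi-likelihood test). The E9.5 call was lost without the libraries high on chromosome X (adjusted p = 0.137), and the E10.5 call without EC library 2, without the shallow HE libraries and with only the 2 groups (adjusted p up to 0.175). At E8.5 EC (17.3, 6.11, 32.2 and 17.0 CPM) and HE (21.7, 11.7, 18.9 and 18.3 CPM) overlapped, with no call.

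The highest Tek peak, chr4:94412544-94413897, had E10.5 values of 42.9, 90.3, 87.1 and 51.3 CPM (EC), 24.2, 57.2, 60.2 and 7.26 CPM (HE), 23.1, 42.5 and 13.1 CPM (pre-HSC I) and 3.49, 11.3, 11.9 and 17.8 CPM (pre-HSC II). Pre-HSC II lay below every EC library, a difference of -2.49 (SE 0.387, adjusted p = 1.08e-06, edgeR's quasi-likelihood test), or 5.63-fold, and that call was kept in all 16 alternatives. HE overlapped EC, and with the replicate block its difference of -0.95 was called (SE 0.257, adjusted p = 0.0186, edgeR). No Tek peak was called at the step from pre-HSC I to pre-HSC II, where the median over the 13 tested Tek peaks was 0.28. The other 12 tested Tek peaks had a median r of 0.64 with the highest one over the 9 group means (-0.30 to 0.95), and the peaks most like it outside the windows were chrX:161389747-161390806 (0.997), chr2:93143297-93144779 (0.996) and chr2:136653185-136654050 (0.994).

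The Tie1 window, that of the Tek co-receptor, held 4 peaks, of which 1 was the highest in every group except pre-HSC II, where it averaged 12.67 CPM beside 14.9 CPM at chr4:118138160-118138998. Its summed CPM was 71.6 ± 19.9 in E8.5 EC, 101 ± 22.4 in E8.5 HE, 128 ± 7.94 and 122 ± 16.9 in the EC and HE of E9.5 (SD, n = 4 each). It was 87.9 ± 10.8 in pro-HSC/HPC (SD, n = 3), 104 ± 22 in E10.5 EC, 86.3 ± 43.5 in E10.5 HE (SD, n = 4 each), 69.4 ± 13.7 in pre-HSC I (SD, n = 3) and 31.3 ± 7.03 in pre-HSC II (SD, n = 4). Of the neighbours in this order, pre-HSC I and pre-HSC II did not overlap and the others did.

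That peak, chr4:118162011-118163419, measured 37.4, 27.9, 63.7 and 58.8 CPM in E8.5 EC and 94.7, 104, 120.2 and 119.6 in E9.5 EC, without overlap, a rise of 1.19 (SE 0.298, adjusted p = 0.00544, edgeR's quasi-likelihood test). E9.5 HE measured 96.1, 100.5, 67.9 and 115 CPM and overlapped EC, and pro-HSC/HPC measured 61.5, 48.0 and 50.1, below both. The difference of pro-HSC/HPC from EC was -1.03 (SE 0.324, adjusted p = 0.0253, edgeR), and it was lost without EC library 3, pro-HSC/HPC library 2 or pro-HSC/HPC library 3. At E10.5 the pre-HSC I libraries measured 51.3, 58.7 and 28.0 CPM and the pre-HSC II libraries 14.0, 7.52, 20.3 and 8.92, without overlap. This was a fall of 1.90 (SE 0.398, adjusted p = 0.00202, edgeR), or 3.72-fold, and against E10.5 EC pre-HSC II differed by -2.84 (SE 0.37, adjusted p = 2.39e-08, edgeR), and both calls were kept in all 16 alternatives each. The rise in EC was lost without the shallow E8.5 libraries and without the chromosome X-high E9.5 libraries (adjusted p up to 0.24). A second Tie1 peak, chr4:118138160-118138998, was higher in pro-HSC/HPC than in E9.5 EC (1.12, adjusted p = 0.038, edgeR), the opposite direction of the main peak, with a call kept in 6 of 16 alternatives. The peaks most like the main one outside the windows were chr7:119966299-119967864 (0.996), chr11:51232071-51232767 (0.995) and chr8:124189029-124189897 (0.994).

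At the level of single peaks, the Kdr, Flt1 and Tie1 windows each held a peak that was not called between HE and EC at E9.5 or E10.5 and was called lower in pre-HSC II than in pre-HSC I (chr5:76317469-76319516, chr5:148536404-148539125 and chr4:118162011-118163419). Of these, the Kdr peak was also called lower in pre-HSC I than in HE without the shallow E10.5 HE libraries. The Kdr, Flt1, Flt4 and Tek windows also held peaks called lower in E9.5 HE than in EC (chr5:76337643-76338561, chr5:148441945-148443166, chr11:49440203-49440602 and chr4:94496550-94497268 had the smallest adjusted p in each). These groupings were made after the values were seen and were not tested.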

How the data were processed

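The values are unnormalized read counts per peak, deposited by the authors as a single table of 76018 ATAC-seq peaks and 35 libraries. Per the submitters' processing notes the build was mm9, and MACS2 2.0.1, DiffBind 1.14.6, Bowtie 1.0.0, Trim Galore 0.3.1, deepTools, bedtools 2.17.0 and SAMtools are named. Their settings, any shift of reads to the transposase's position and the first base of the positions (0 or 1) are not given in the sources used here. Per the labels, libraries had 13 PCR cycles. Reads carry no molecular identifiers here, and between 54.1% and 78.2% of counts from 10 to 49 were even, depending on the library, so counting intervals and floors cover counting error only and are too narrow where reads come in pairs. Groups came from the sample titles. Pre-HSC I libraries 2 and 3 entered as their rounded mean, which left 34 samples.

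Peaks were filtered with filterByExpr by group (67131 kept, 8887 removed), normalized by TMM and fitted once over the 9 groups with edgeR's quasi-likelihood functions (edgeR 4.0.16, glmQLFTest, two-sided tests), leaving 25 residual degrees of freedom, with Benjamini-Hochberg adjustment over all tested peaks and a threshold of 0.05. The SE is the size of the log2 fold change divided by the square root of F. Scripts were tested on simulated data. Other software was DESeq2 1.42.0, limma 3.58.1, R 4.3.3, pandas 2.3.3, matplotlib 3.10.9, numpy 2.4.6 and Python 3.11.15. The windows, the motifs and the rule for named peaks were chosen with earlier results of these data known. The rule takes, in each window, the peak with the highest mean of the 9 group means, and in each comparison the called peak with the smallest adjusted p, and other peaks named beyond it were chosen after their values were seen. Likeness is Pearson r over group means of log2 CPM with a prior count of 2.

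The labels number the replicates alike in each group. Same-numbered E10.5 EC and HE libraries deviated together over all tested peaks (r of 0.248, 0.189, 0.329 and 0.126 for numbers 1 to 4). For number 4 this was little above the r with the closest EC library of another number (0.117). These numbers were taken as pairs only in the fits with the replicate block, and the main fit has no block. In the other comparisons not every r passed 0.1. Alternatives were other scalings, no filter, DESeq2, fits of only the groups compared, the replicate block, thinning to the lowest total and leaving out libraries. Other genes of the pathway and cell type markers were to be placed by an annotation of the files' build and were not used here.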

Additional observations from a re-analysis of the deposited data

Results flagged for a closer look

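Among 168 sets of 4 libraries checked (7 groups at 19 named peaks and in the 5 window sums), 8, all at named peaks, had 1 library far from the other 3, by a gap to the nearest that takes up most of the group's range (Dixon's test), where chance gives about 1 in 20. At the Flt4 peak chr11:49422385-49424259, E10.5 HE library 4 stood at 87.1 CPM (others 38.6 to 46.0) and E8.5 HE library 3 at 54.3 CPM (others 38.5 to 39.5). At chr11:49431727-49432564, E10.5 EC library 2 stood at 16.6 CPM (others 7.54 to 8.21). At chr11:49440203-49440602, E8.5 HE library 1 stood at 15.1 CPM (others 4.54 to 5.49). At the Flt1 peak chr5:148536404-148539125, E9.5 HE library 3 was low at 90.1 CPM (others 120.4 to 124), and at chr5:148598490-148599074, E10.5 HE library 4 was at 0 CPM (others 4.69 to 4.83). At the Kdr peak chr5:76370371-76371292, pre-HSC II library 2 stood at 16.3 CPM (others 2.97 to 4.78) and E8.5 EC library 1 at 25.2 CPM (others 15.7 to 16.7).

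The HE against EC difference changed from E8.5 to E9.5 at 6 peaks, as tested by an interaction contrast in edgeR's quasi-likelihood test with Benjamini-Hochberg adjustment. The changes were -1.83 at chr5:76292395-76293723 (adjusted p = 0.0379), -1.95 at chr5:76337643-76338561 (adjusted p = 0.0351) and -2.11 at chr5:76370371-76371292 (adjusted p = 0.0249) in the Kdr window. In the Flt1 window they were -2.67 at chr5:148386054-148386602 (adjusted p = 0.0228) and -2.45 at chr5:148441945-148443166 (adjusted p = 0.00437), and in the Flt4 window -3.49 at chr11:49440203-49440602 (adjusted p = 0.0231). None of the 6 was called without the shallow E8.5 libraries or without the 3 chromosome X-high E9.5 libraries, where all 6 kept their sign.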

How the results depend on the processing

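Of 142 calls of a peak in a comparison, 49 were kept in every alternative in which the peak was tested and none changed sign, and 420 of 2313 values under alternatives were no longer called. The cause of the following changes was not tested, except that fits of fewer samples or counts test fewer peaks or have fewer degrees of freedom by construction. The counts below are of the windows' peaks. Where the share over all tested peaks is not given for a fit, its count has no background. In the order E8.5 HE against EC, E9.5 HE against EC, E10.5 HE against EC, pro-HSC/HPC against HE, pro-HSC/HPC against EC, pre-HSC I against HE, pre-HSC II against pre-HSC I, pre-HSC II against EC, EC of E9.5 against E8.5, EC of E10.5 against E9.5 and the interaction, the main counts were 3, 8, 5, 7, 39, 0, 9, 46, 17, 2 and 6. Leaving out single libraries gave 1 to 3, 3 to 7, 2 to 12, 2 to 7, 22 to 37, 0 to 0, 7 to 10, 37 to 50, 12 to 18, 0 to 2 and 2 to 9. Thinning to the lowest total gave 1 (E8.5 HE), 3 (E9.5 HE), 2 (pro-HSC/HPC against HE), 21 (against EC), 4 (pre-HSC II against pre-HSC I), 26 (against EC), 8 (EC to E9.5), 1 (EC to E10.5) and 0 (interaction), with 34 peaks of the windows tested. Fits of only the groups compared gave 7 (E8.5 HE), 19 (E9.5 HE), 0 (E10.5 HE), 25 (pro-HSC/HPC against HE), 3 (pre-HSC II against pre-HSC I), 28 (against EC), 30 (EC to E9.5), 5 (EC to E10.5) and 23 (interaction). Over all tested peaks the first 4 of these fits called 7.31%, 11.8%, 0.294% and 8.5%, against 1.43%, 2.58%, 2.28% and 1.74% in the main fit. The windows then had 70, 85, 72 and 75 tested peaks. The replicate block gave 5 (E8.5 HE), 14 (E10.5 HE), 17 (pro-HSC/HPC against HE), 14 (pre-HSC II against pre-HSC I) and 14 (interaction), and with only the groups compared the block gave 9, 21 (E9.5 HE), 13, 25, 4, 25 (pre-HSC II against EC), 27 (EC to E9.5), 5 (EC to E10.5) and 25 (interaction). Over all tested peaks the block called 2.34% (E8.5 HE), 3.68% (E10.5 HE) and 2.53% (pro-HSC/HPC against HE). With only the groups compared it called 8.84% (E8.5 HE), 13.5% (E9.5 HE), 5.29% (E10.5 HE) and 6.91% (pro-HSC/HPC against HE). Only at E10.5 HE against EC did the check take the numbers as pairs, and elsewhere libraries share only a number. DESeq2 gave 5 (E8.5 HE), 10 (E10.5 HE), 16 (pro-HSC/HPC against HE), 4 (EC to E10.5) and 15 (interaction). Over all tested peaks it called 4.85% (E8.5 HE), 4.57% (E10.5 HE) and 4.21% (pro-HSC/HPC against HE). RLE size factors gave 5 and cyclic loess offsets 4 for pre-HSC II against pre-HSC I, and no count filter gave 13 for pro-HSC/HPC against HE. Without the shallow E8.5 libraries the counts were 0 (E8.5 HE), 6 (EC to E9.5) and 0 (interaction), without the 3 chromosome X-high E9.5 libraries 0 (E9.5 HE), 1 (EC to E10.5) and 0 (interaction), and without the shallow E10.5 HE libraries 0 (E10.5 HE) and 6 (pre-HSC I against HE). With cyclic loess offsets the summed level in pre-HSC II was 339 CPM for Flt1, 88.7 for Flt4, 115 for Tek and 41.5 for Tie1, each above its TMM value by more than 1 SD. Depth limits pre-HSC II most, where 3 counts stand for 2.23 to 5.24 CPM.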
